A study of Mus musculus with 12 samples.

Results

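Glycolysis genes were followed through colon tumours and the colon tissue beside them. The 10 members are Slc2a1, Hk1, Hk2, Pfkl, Pfkp, Aldoa, Pgk1, Eno1, Pkm and Ldha, taken by name from the 48448 genes of the series, and all 10 were among the 16970 genes that passed the filter on low values. The libraries came from C57BL/6 mice in a model of colitis-associated cancer, in 4 groups of 3. Flox mice carried a floxed Synbindin allele and served as controls, and ΔIEC mice had Synbindin deleted in intestinal epithelial cells. From each genotype there were tumours and adjacent tissue, so both genotypes had been through the cancer model and no untreated colon was included. The labels call the adjacent samples both adjacent tissue and colon epithelium, and they give neither the age of the mice, the Cre driver, nor whether a library is 1 mouse.

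Glycolysis splits glucose into pyruvate in the cytosol and yields ATP without oxygen, and lactate dehydrogenase can then turn pyruvate into lactate, which restores the NAD+ that glycolysis uses. Tumours are widely known for taking up much glucose and releasing lactate even where oxygen is at hand. Differentiated colonocytes of the normal colon draw much of their energy from butyrate that gut bacteria make. In the order of the pathway, Slc2a1 (GLUT1) carries glucose into the cell, Hk1 and Hk2 trap it as glucose 6-phosphate, Pfkl and Pfkp encode subunits of the committing enzyme phosphofructokinase, Aldoa splits the hexose, Pgk1 and Pkm make ATP, Eno1 makes phosphoenolpyruvate between them, and Ldha makes lactate.

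Levels are given in FPKM, read fragments scaled by transcript length and library size, a unit that allows levels of different genes to be compared but keeps no read depth, so the depth of the libraries is unknown. Library names give the genotype (F for flox, D for ΔIEC), the tissue (A for adjacent, T for tumour) and the replicate number, as in FA1. Trappc4, which encodes Synbindin, was at 16.8 to 17.3 FPKM in flox adjacent tissue and 10.2 to 12.6 in ΔIEC adjacent tissue, and at 17.5 to 20.9 in flox tumours and 9.91 to 12.7 in ΔIEC tumours, so every library stood on the side its label gives. Its difference did not pass adjustment over all genes in either tissue (limma, unadjusted p = 0.000431 in adjacent tissue and 0.000104 in tumours, adjusted p = 0.931 and 1.0). Summed over 12 epithelial markers, adjacent tissue held 6065 to 10443 FPKM and tumours 4288 to 6150, and none of these markers was at 0; 11 of the 12 were called lower in flox and 5 in ΔIEC tumours. Their part in the results below was not tested. Summed over 8 fibroblast markers, adjacent tissue held 48.2 to 260.3 FPKM and tumours 289 to 606. In the sum of 8 markers of absorptive colonocytes, FA1 and DA1 stood apart from the other libraries of their groups. FA1 was at 2818 FPKM against 6813 and 9014 in FA2 and FA3, whereas DA1 was at 6711 against 2123 and 2419 in DA2 and DA3. Tumours were at 147 to 314. Not every marker in this sum parted the same way. Car4 was at 939 FPKM in FA1 against 651 and 364 in FA2 and FA3. In DA1 it was at 975 against 328 and 1019 in DA2 and DA3. Aqp8 was at 143 in FA1 against 291 and 56.3, and at 296 in DA1 against 75.7 and 234. Among flox tumours, FT1 and FT2 stood apart in the sum of 8 squamous keratinocyte markers, at 397 and 382 FPKM against 24.1 in FT3, 19.5 to 44.0 in ΔIEC tumours and 0.84 to 4.50 in adjacent tissue. Results are therefore also given without FA1 and DA1, or without FT1 and FT2, where that changed a call.

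Upstream sequences of the members were searched for the short core that hypoxia-inducible factors bind, ACGTG or GCGTG, and for the E-box CACGTG that Myc with Max binds, on both strands. CACGTG contains ACGTG, so an E-box is also counted as a core. All 10 members matched a RefSeq promoter on GRCm38, each holding 250 bases before and 50 after a start, with 17 promoters between them. Either core was found in 14 of these 17 promoters and in at least 1 promoter of all 10 genes. Of all 32851 promoters of the same length 43.8% held either core, and 46.7% of 27025 genes had it in at least 1 promoter. CACGTG was found in 1 of the 17 promoters, that of Ldha, and in 7.15% of all promoters. The member promoters held 51.3% to 69.0% G and C, with a median of 52.7% over all promoters, and the cores contain CG. The 3 member promoters with the most separate matches, of Ldha, Hk1 and Pfkp, are printed. They were chosen by number of matches and not by level. They are given 5′ to 3′ on the gene's strand, with either core on either strand in capitals. The Ldha promoter lies at chr7:46845554-46845853 on the plus strand and holds 5 matches, 2 of them CACGTG. The Hk1 promoter belongs to the downstream of its 2 listed starts, at chr10:62340372-62340671 on the minus strand, and holds 4 matches. The promoter of the other Hk1 start, at chr10:62379859-62380158, holds 0 matches, and which start was used was not tested. The Pfkp promoter lies at chr13:6648722-6649021 on the minus strand and holds 4 matches, all of them GCGTG. A match is a run of letters and not a measured binding site.
Ldha: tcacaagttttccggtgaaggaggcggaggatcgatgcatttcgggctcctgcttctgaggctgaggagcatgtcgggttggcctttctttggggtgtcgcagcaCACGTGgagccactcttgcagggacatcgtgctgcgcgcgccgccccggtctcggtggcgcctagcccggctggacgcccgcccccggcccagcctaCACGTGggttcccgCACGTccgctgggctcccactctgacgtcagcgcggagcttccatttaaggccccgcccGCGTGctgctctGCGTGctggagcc
Hk1: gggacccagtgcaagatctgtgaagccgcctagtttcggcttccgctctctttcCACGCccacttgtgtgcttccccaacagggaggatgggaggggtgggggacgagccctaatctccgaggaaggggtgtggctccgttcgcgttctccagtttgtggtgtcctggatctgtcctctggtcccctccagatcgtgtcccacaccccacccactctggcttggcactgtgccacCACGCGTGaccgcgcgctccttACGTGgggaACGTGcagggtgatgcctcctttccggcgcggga
Pfkp: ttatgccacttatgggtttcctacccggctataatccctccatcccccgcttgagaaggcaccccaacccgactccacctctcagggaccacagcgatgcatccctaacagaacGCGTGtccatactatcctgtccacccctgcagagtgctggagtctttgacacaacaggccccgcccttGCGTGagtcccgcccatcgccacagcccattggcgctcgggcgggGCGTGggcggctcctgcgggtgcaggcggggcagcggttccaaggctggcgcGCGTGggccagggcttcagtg

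The most abundant members in adjacent tissue were Ldha and Aldoa, and in tumours Pkm. Mean levels in flox adjacent tissue ran from 709 FPKM for Ldha and 688 for Aldoa through 451 for Pkm, 275 for Eno1 and 150.3 for Pgk1 to 89.9 for Pfkp, 89.4 for Hk1, 63.1 for Hk2, 60.6 for Pfkl and 49.8 for Slc2a1. ΔIEC adjacent tissue had the same order except that Slc2a1, at 46.0 FPKM, stood above Pfkl, at 43.8. In flox tumours the order was Pkm at 492 FPKM, Ldha at 425, Aldoa at 364, Eno1 at 269, Pgk1 at 147, Hk2 at 48.2, Pfkp at 48.1, Hk1 at 35.8, Slc2a1 at 27.3 and Pfkl at 22.7, and ΔIEC tumours had the same order. Several neighbours lay within each other's spread, such as Ldha and Aldoa in flox adjacent tissue (SD 86.2 and 71.6 FPKM, n = 3), Hk1 and Pfkp there (SD 10.7 and 12.5, n = 3), and Hk2 and Pfkp in flox tumours (SD 17.6 and 11.2, n = 3).

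The members called lower in tumours were genes of the upper steps of the pathway and, in flox mice, Ldha. In flox mice Hk1, Pfkl, Pfkp, Aldoa and Ldha fell, to between 37.4% and 60.0% of their adjacent level. In ΔIEC mice Hk1, Pfkl, Pfkp and Aldoa fell, to between 48.2% and 66.7%. Pgk1, Eno1 and Pkm, the enzymes of the lower steps, did not pass the test in either genotype on the deposited scale. No member rose on that scale. In numbers, 5 of 10 members were called lower in flox tumours, where 19.7% of all tested genes were called lower and 16.6% higher, and 4 of 10 in ΔIEC tumours, where 15.5% were called lower and 13.9% higher. The median difference of the 10 members was −0.78 on the log2(FPKM + 1) scale in flox mice and −0.49 in ΔIEC mice, beside −0.01 and −0.03 over all tested genes. Without FT1 and FT2 the flox comparison rested on FT3 alone, assumed to vary like the other libraries, and 0 of 10 members were called, beside 6.68% of all genes lower and 5.26% higher. The differences of Hk1, Pfkl, Pfkp, Aldoa and Ldha were then −1.24, −1.24, −0.54, −0.65 and −0.51, with adjusted p-values of 0.0596, 0.066, 0.221, 0.102 and 0.244. In bulk tissue, fewer cells of a type and less RNA per cell cannot be told apart.

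**Figure D1:**
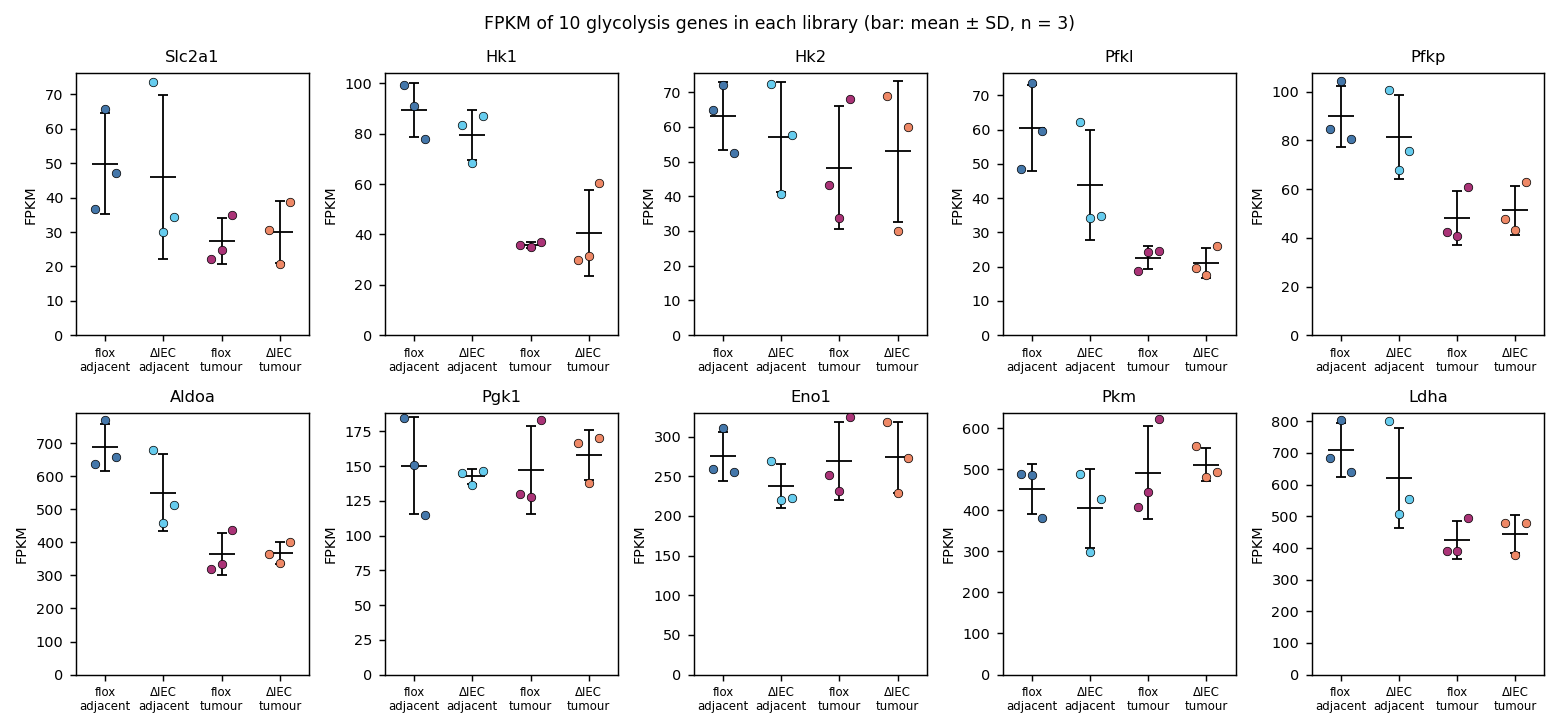
FPKM of each of the 10 genes in the 12 libraries (vertical axes from 0, points are libraries, horizontal bars and whiskers are the mean ± SD of 3). For Hk1, Pfkl, Pfkp, Aldoa and Ldha all 6 tumours sit below all 6 adjacent libraries, whereas for Pgk1, Eno1 and Pkm the tissues overlap.

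The glucose transporter gene was not called in either genotype. Slc2a1 (ENSMUSG00000028645, chromosome 4, 119108711 to 119137983, GRCm38) was at 36.7, 65.6 and 47.2 FPKM in flox adjacent tissue, 73.5, 30.0 and 34.5 in ΔIEC adjacent tissue, 22.2, 24.8 and 34.9 in flox tumours and 30.5, 20.6 and 38.8 in ΔIEC tumours. The flox groups did not overlap, while in ΔIEC mice DT3 lay above DA2 and DA3 and DT1 above DA2. The differences were −0.83 (SE 0.36, limma adjusted p = 0.0915) in flox mice and −0.53 (adjusted p = 0.284) in ΔIEC mice. Without DA1, which enters the shared estimate of spread, the flox difference of −0.83 passed at an adjusted p of 0.0353, and without both FA1 and DA1 it was −1.03 with an adjusted p of 0.0194. The ΔIEC difference was −0.14 without DA1 (adjusted p = 0.772) and −0.29 without DT2 (adjusted p = 0.61).

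The hexokinases parted from each other. Hk1 (ENSMUSG00000037012, chromosome 10, 62268855 to 62379908), the hexokinase found in most tissues, was at 99.1, 91.1 and 77.9 FPKM in flox adjacent tissue and 83.3, 68.4 and 86.9 in ΔIEC adjacent tissue. It was at 35.7, 34.9 and 37.0 in flox tumours and 29.9, 31.4 and 60.2 in ΔIEC tumours. All 6 tumours lay below all 6 adjacent libraries, and DT3 stood nearest to them. The difference was −1.29 (SE 0.23, adjusted p = 0.0023) in flox mice and −1.02 (SE 0.23, adjusted p = 0.00919) in ΔIEC mice, and both calls held when any single library was left out. Hk2 (ENSMUSG00000000628, chromosome 6, 82725025 to 82774454), the hexokinase best known from muscle and from cancer cells, was at 64.8, 71.9 and 52.6 FPKM in flox adjacent tissue, 72.4, 40.8 and 57.7 in ΔIEC adjacent tissue, 43.2, 33.7 and 67.8 in flox tumours and 68.7, 29.9 and 60.0 in ΔIEC tumours. The groups overlapped throughout, with FT3 and DT1 close to the highest adjacent libraries. Its differences were −0.43 (95% interval −1.19 to 0.33) in flox mice and −0.15 (−0.91 to 0.61) in ΔIEC mice, and neither passed.

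Both phosphofructokinase genes and aldolase A were lower in tumours. Pfkl (ENSMUSG00000020277, chromosome 10, 77986947 to 78010083), the liver-type subunit, was at 48.6, 73.6 and 59.5 FPKM in flox adjacent tissue, 62.3, 34.3 and 34.7 in ΔIEC adjacent tissue, 18.9, 24.4 and 24.7 in flox tumours and 19.7, 17.5 and 26.1 in ΔIEC tumours. No tumour reached the lowest adjacent library, DA2. Pfkl fell by 1.37 in flox mice on the log2(FPKM + 1) scale (SE 0.25, adjusted p = 0.00251) and by 0.98 in ΔIEC mice (SE 0.25, adjusted p = 0.0153). Pfkp (ENSMUSG00000021196, chromosome 13, 6579768 to 6648777), the platelet-type subunit, was at 84.8, 104.2 and 80.7 FPKM in flox adjacent tissue, 100.6, 67.8 and 75.6 in ΔIEC adjacent tissue, 42.5, 40.8 and 61.0 in flox tumours and 47.8, 43.1 and 62.7 in ΔIEC tumours. The highest tumour, DT3, lay below the lowest adjacent library, DA2. Pfkp fell by 0.90 in flox mice (SE 0.21, adjusted p = 0.00779) and by 0.65 in ΔIEC mice (SE 0.21, adjusted p = 0.0379). Transcripts annotated as not protein coding held 37.8% to 50.1% of its FPKM in each library, against 6.96% or less in 8 other members and 12.6% or less in Slc2a1. With protein-coding transcripts only, the ΔIEC call of Pfkp was lost (−0.55, adjusted p = 0.0692). It was also lost under quantile normalization (−0.45, adjusted p = 0.0587), with no filter on low values (adjusted p = 0.0653) and after rescaling each library to 1 protein-coding total (−0.36, adjusted p = 0.0988).

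Aldoa (ENSMUSG00000030695, chromosome 7, 126795234 to 126800751) was at 636, 769.7 and 658 FPKM in flox adjacent tissue, 681, 459 and 514 in ΔIEC adjacent tissue, 320.3, 335 and 437 in flox tumours and 364, 336 and 402.4 in ΔIEC tumours. FT3 came closest to the adjacent libraries and DA2 was the lowest of these. Aldoa fell by 0.93 in flox mice (SE 0.17, adjusted p = 0.0026) and by 0.57 in ΔIEC mice (SE 0.17, adjusted p = 0.0301). In ΔIEC mice the calls of Pfkp and Aldoa were lost without DA1, DA3, DT1 or DT2, with adjusted p-values of 0.0649 to 0.127 for Pfkp and 0.0523 to 0.0998 for Aldoa, and that of Pfkl without DT1 (0.0538) or DT2 (0.0554). The ΔIEC call of Aldoa was lost with no filter (adjusted p = 0.0514) and after that rescaling (−0.27, adjusted p = 0.0985). A fit to the ΔIEC libraries alone called no member, with Hk1 at an adjusted p of 0.058, beside 8.41% of all genes lower and 6.69% higher in that fit.

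The lower steps, from phosphoglycerate kinase to pyruvate kinase, showed no call on the deposited scale. Pgk1 (ENSMUSG00000062070, chromosome X, 106187100 to 106203699) was at 184.9, 151 and 115 FPKM in flox adjacent tissue, 145, 137 and 146 in ΔIEC adjacent tissue, 129.9, 128 and 184 in flox tumours and 167, 138 and 170.4 in ΔIEC tumours. Its differences were −0.03 (95% interval −0.44 to 0.39) in flox mice and 0.14 (−0.27 to 0.56) in ΔIEC mice. Eno1 (ENSMUSG00000063524, chromosome 4, 150236721 to 150248879), the enolase of most tissues, was at 259, 311 and 256 FPKM in flox adjacent tissue, 269, 220.0 and 223 in ΔIEC adjacent tissue, 252, 232 and 325 in flox tumours and 319, 229.6 and 274 in ΔIEC tumours. The highest value of all was a tumour, FT3, and the lowest an adjacent library, DA2. Its differences were −0.04 (−0.41 to 0.32) and 0.20 (−0.16 to 0.56).

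Pkm (ENSMUSG00000032294, chromosome 9, 59656368 to 59679375) encodes pyruvate kinase of muscle and most other tissues. It was at 488, 485 and 380.1 FPKM in flox adjacent tissue, 487, 299 and 428 in ΔIEC adjacent tissue, 408.1, 446 and 622 in flox tumours and 556, 482 and 493 in ΔIEC tumours. In each genotype the tissues overlapped, and FT3 was the highest library. Its differences were 0.11 (95% interval −0.35 to 0.57) in flox mice and 0.36 (−0.10 to 0.82) in ΔIEC mice, with adjusted p-values of 0.705 and 0.212. Ldha (ENSMUSG00000063229, chromosome 7, 46841475 to 46855627) was at 684, 805 and 639 FPKM in flox adjacent tissue, 799.8, 506 and 554 in ΔIEC adjacent tissue, 390.2, 390.5 and 495 in flox tumours and 478, 376 and 479.8 in ΔIEC tumours. The highest tumour, FT3, lay just under the lowest adjacent library, DA2. Ldha fell by 0.74 in flox mice (SE 0.19, adjusted p = 0.0122), and its difference in ΔIEC mice was −0.46 (SE 0.19, adjusted p = 0.0888). Without FA2 the flox difference was −0.64 with an adjusted p of 0.0527, and under quantile normalization it was −0.34 with an adjusted p of 0.0548. The ΔIEC difference was −0.59 without DA2 (adjusted p = 0.048) and −0.26 without DA1 (adjusted p = 0.284). Over both genotypes 5 members had all 6 tumours below all 6 adjacent libraries and none had all above, beside 15.8% and 13.5% of all tested genes.

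**Figure D2:**
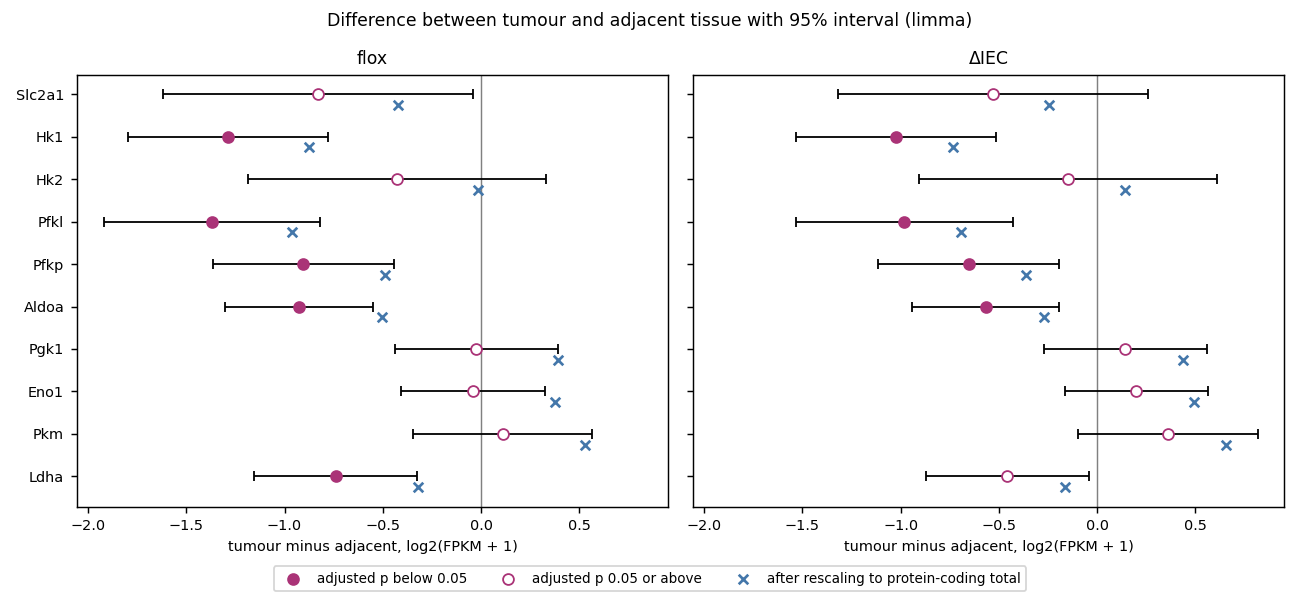
Tumour minus adjacent difference of each gene on the log2(FPKM + 1) scale in flox mice (left) and ΔIEC mice (right), with 95% intervals from limma. Filled points passed an adjusted p of 0.05, and crosses give the difference after each library was rescaled to the same protein-coding total, which moves every gene to the right (Eno1 in flox mice from −0.04 to 0.38).

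How the libraries were scaled mattered for the lower steps. Protein-coding genes summed to 423997 to 513412 FPKM in adjacent libraries and 344790 to 378729 in tumours, with no overlap. When each library was rescaled to the same protein-coding total, the median difference of all tested genes moved to 0.33 in flox mice and 0.21 in ΔIEC mice. The calls moved with it, from 2817 higher and 3346 lower to 6254 and 1770 in flox mice, and from 2357 and 2624 to 4320 and 1496 in ΔIEC mice. On that scale Hk1, Pfkl, Pfkp and Aldoa were called lower in flox tumours, Ldha was not (−0.32, adjusted p = 0.0662), and Eno1 (0.38) and Pkm (0.53) were called higher, where 10.4% of all genes were called lower and 36.9% higher. In ΔIEC tumours Hk1 and Pfkl were called lower and Eno1 (0.49) and Pkm (0.65) higher, beside 8.82% lower and 25.5% higher. Measured from the median of all genes, Eno1 then stood at 0.05 and Pkm at 0.20 in flox mice and at 0.29 and 0.45 in ΔIEC mice, while Hk1 stood at −1.21 and −0.94 and Pfkl at −1.29 and −0.90. The differences of Pgk1 and Eno1 in flox mice and of Hk2 in ΔIEC mice changed sign with this rescaling. Which scale is closer to the RNA per cell was not tested.

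Ratios between members within a library do not depend on the scaling. Ldha was above Pkm in every adjacent library, with ratios of 1.29 to 1.69, and below it in every tumour, with ratios of 0.78 to 0.97. The ratio of Aldoa to Pkm was 1.20 to 1.73 in adjacent tissue and 0.65 to 0.82 in tumours, and that of Pfkl to Pkm 0.081 to 0.156 and 0.035 to 0.055. These ratios were chosen after the values had been seen and carry no test. They show unequal change between members and not which of them changed.

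Members were also set against chosen genes that encode the same enzyme or transporter, each as its share of their summed FPKM. Of 7 shares, 6 differed between tumours and adjacent tissue at an adjusted p below 0.05 (exact two-sided permutation test over 400 arrangements of tissue within genotype, adjusted over the 7 shares). The 6 include the Pfkp and Pfkl shares, which are taken of the same sum and are not separate results. The smallest p this design allows is 0.005, and within a genotype alone it is 0.1. Hk2 made up 39.4%, 44.0% and 40.2% of the summed FPKM of Hk1, Hk2 and Hk3 in flox adjacent tissue and 46.4%, 37.1% and 39.3% in ΔIEC adjacent tissue. It made up 53.6%, 48.4% and 63.4% in flox tumours and 67.9%, 47.5% and 49.4% in ΔIEC tumours. Every tumour lay above every adjacent library, and the mean difference was 13.96 percentage points (exact permutation p = 0.005, adjusted 0.014). Within this sum, the larger share of Hk2 went with the lower Hk1 and with no call for Hk2 itself. Hkdc1, another hexokinase gene, is not in the sum. It was at 1.18 to 42.5 FPKM in adjacent tissue and 0.056 to 0.69 in tumours. Its difference was −3.72 in flox mice (limma adjusted p = 0.0255) and −2.74 in ΔIEC mice (adjusted p = 0.0874). The flox call was lost without FA2 (limma adjusted p = 0.096), FA3 (0.0895), FT1 (0.0664), FT2 (0.0537) or FT3 (0.0646). It was also lost in a fit to the flox libraries alone (0.0563). Without FT1 and FT2 together the flox difference was −3.84. The ΔIEC difference passed with a pseudocount of 0.1 (limma adjusted p = 0.0381) and without FA1 (0.0164). Without FA1 and DA1 together it was −1.85 and passed (0.0142). Hk3, the hexokinase of myeloid cells, stayed at 2.54 FPKM or less.

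Among phosphofructokinases, Pfkp made up 56.2% to 66.9% in adjacent tissue and 60.5% to 69.9% in tumours, a difference of 6.08 points (exact permutation p = 0.015, adjusted 0.0175). Pfkl made up 30.7% to 41.4% and 27.9% to 36.2%, a difference of −6.53 points (exact permutation p = 0.01, adjusted 0.014). The tissues overlapped for both, and Pfkm, the muscle subunit, was at 1.18 to 3.36 FPKM. With so little Pfkm, the Pfkp and Pfkl shares are nearly complements of each other.

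Eno1 made up 60.7%, 86.1% and 94.5% of enolase FPKM in flox adjacent tissue, 83.6%, 91.6% and 66.9% in ΔIEC adjacent tissue and 94.5% to 96.6% in tumours, a difference of 14.8 points (exact permutation p = 0.005, adjusted 0.014). The other enolase there was Eno3, best known from muscle, at 165.9 FPKM in FA1, 108.8 in DA3, 49.8 in FA2, 52.2 in DA1, 18.3 in DA2 and 13.8 in FA3, and at 8.97 to 17.9 in tumours. In the same order, 7 skeletal muscle markers summed to 2.65, 3.86, 9.07, 5.96, 4.06 and 7.84 FPKM, and to 2.28 to 3.74 in tumours, and their part in the result was not tested. Eno3 itself did not pass the test (limma adjusted p = 0.0552 in flox and 0.123 in ΔIEC mice). Ldha made up 99.0% to 99.8% of Ldha and Ldhb in adjacent tissue and 94.7% to 99.1% in tumours, a difference of −1.74 points (exact permutation p = 0.01, adjusted 0.014) that became −1.12 without DT1, where Ldhb was at 26.7 FPKM. Slc2a1 made up 96.1% to 99.3% of Slc2a1, Slc2a2 and Slc2a3 in adjacent tissue and 93.9% to 96.5% in tumours, a difference of −2.92 points (exact permutation p = 0.01, adjusted 0.014). Slc2a3, the transporter of neurons and many blood cells, was at 0.40 to 1.41 FPKM in adjacent tissue and 0.82 to 1.92 in tumours.

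**Figure D3:**
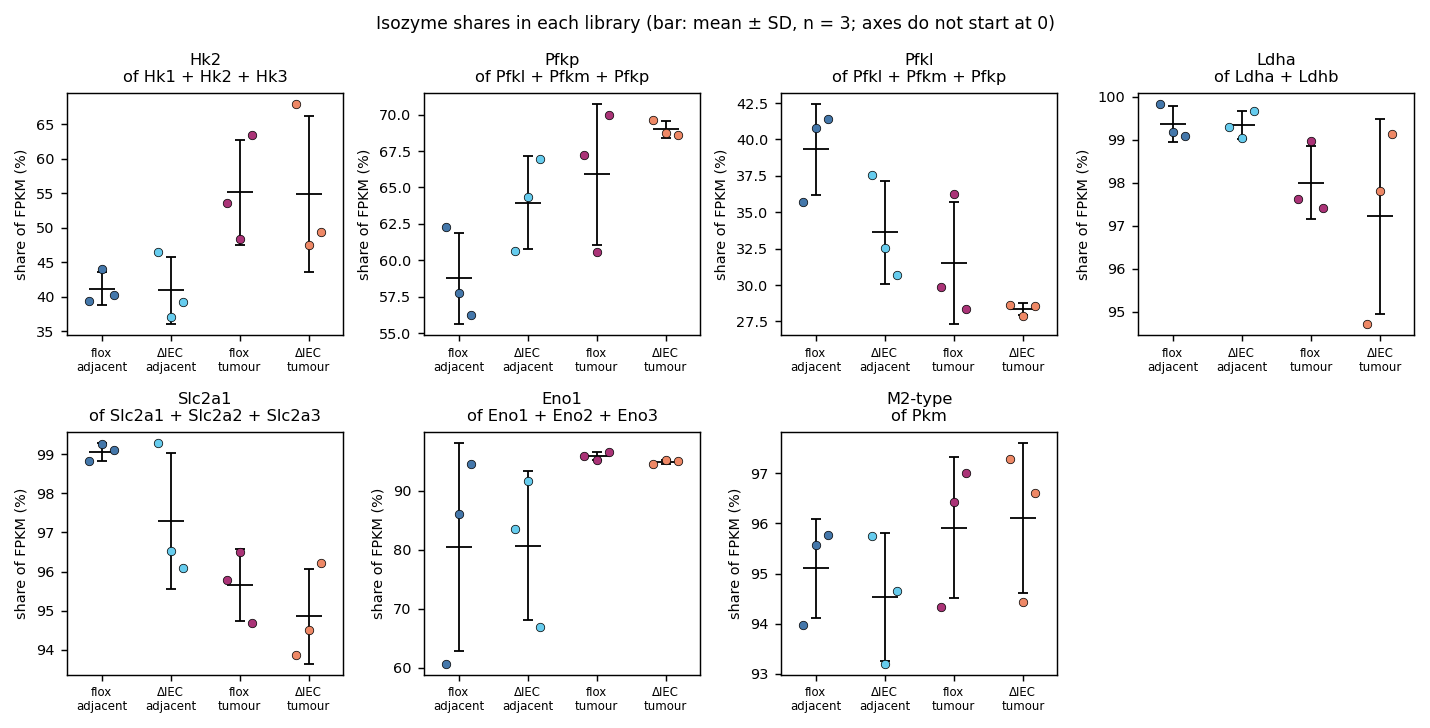
Share of summed FPKM (percent, axes do not start at 0) of a member among chosen genes for the same protein, and of the M2-type transcript within Pkm, in the 12 libraries with the mean ± SD of 3. Hk2 shares do not overlap between tissues (37.1% to 46.4% against 47.5% to 67.9%), and M2-type shares do.

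The Pkm gene makes M1-type and M2-type pyruvate kinase by including either of 2 neighbouring exons of equal length. M2-type is the form of growing and many epithelial cells, and M1-type that of muscle and brain. Both exons are 167 bases long on the plus strand of chromosome 9 and are printed because the deposited table separates their transcripts. The M1-type exon lies at chr9:59675029-59675195 and the M2-type exon at chr9:59675568-59675734 (GRCm38). They share 61.7% of their bases position by position, and the 64 that differ are in capitals.
M1-type exon: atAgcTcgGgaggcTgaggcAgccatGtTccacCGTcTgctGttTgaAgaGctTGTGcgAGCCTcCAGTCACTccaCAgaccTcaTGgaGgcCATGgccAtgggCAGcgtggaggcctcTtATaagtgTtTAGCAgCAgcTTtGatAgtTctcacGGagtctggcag
M2-type exon: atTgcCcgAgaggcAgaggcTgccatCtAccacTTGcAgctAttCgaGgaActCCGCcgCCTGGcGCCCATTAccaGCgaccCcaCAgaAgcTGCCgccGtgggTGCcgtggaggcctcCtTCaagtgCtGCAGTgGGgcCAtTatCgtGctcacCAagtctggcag
The M2-type transcript held 94.0%, 95.6% and 95.8% of Pkm FPKM in flox adjacent tissue and 95.7%, 93.2% and 94.7% in ΔIEC adjacent tissue. It held 94.3%, 96.4% and 97.0% in flox tumours and 97.3%, 94.4% and 96.6% in ΔIEC tumours. M2-type was thus the main form in both tissues, the tissues overlapped, and the difference of 1.19 points did not pass (exact permutation p = 0.14, also after adjustment).

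No member was called between genotypes. With all 12 libraries, limma called 0 of 10 members and 0% of 16970 genes in adjacent tissue, in tumours and for the difference of the tumour effects between genotypes, where 702, 317 and 448 genes had an unadjusted p below 0.05, none of them a member. Without DA1 it called 290 genes higher (1.71%) and 9 lower (0.053%) in ΔIEC adjacent tissue, none of them a member. The smallest p-values among members in adjacent tissue belonged to Pfkl, at 72.3% of its flox level (−0.50, 95% interval −1.05 to 0.05), Aldoa (−0.34, −0.71 to 0.04) and Eno1 (−0.21, −0.58 to 0.15). In tumours they belonged to Pgk1 (0.12, −0.30 to 0.53), Pfkp (0.10, −0.36 to 0.56) and Pfkl (−0.11, −0.66 to 0.44). For the difference of tumour effects they belonged to Aldoa (0.36, −0.17 to 0.89), Pfkl (0.39, −0.39 to 1.17) and Ldha (0.28, −0.31 to 0.87). Without DA1 the adjacent differences were −0.77 for Pfkl (adjusted p = 0.124), −0.50 for Aldoa, −0.31 for Eno1, −0.58 for Slc2a1 and −0.42 for Ldha, and the differences of tumour effects were 0.67 for Pfkl, 0.52 for Aldoa and 0.48 for Ldha (adjusted p = 0.549, 0.536 and 0.575). No member had non-overlapping genotypes in either tissue, beside 5.14% of all tested genes lower and 2.56% higher in adjacent tissue and 3.74% lower and 3.03% higher in tumours. All 10 adjacent differences were below 0, with a median of −0.18 beside −0.03 over all genes. DA2 was the lowest ΔIEC adjacent library for all 10 members, so these signs are not separate observations. After rescaling to the protein-coding total Pgk1 was at 0.03. In the same comparison on the deposited scale all 12 epithelial markers were below 0 as well (median −0.33). All 8 fibroblast markers were above 0 (median 0.39). The part of tissue make-up in these signs was not tested. None of the 7 isozyme shares differed between genotypes below an exact permutation p of 0.1, the smallest that 3 against 3 allows and the value reached by the Eno1 share in tumours, with a difference of −0.99 points.

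Members moved together from library to library within a group. FT3 was the highest flox tumour for all 10 members, DA2 the lowest ΔIEC adjacent library for all 10, DT2 the lowest ΔIEC tumour for 9, DA1 the highest ΔIEC adjacent library for 8, and FA2 the highest flox adjacent library for 7. Deviations from the group means were correlated above 0 for all 45 pairs of members over the 12 libraries, from r = 0.10 to r = 0.95 with a median of 0.72. These libraries share their scaling and tissue make-up, so r is a description only. The summed FPKM of protein-coding genes had the same extremes within groups. It was highest in FT3 (376271), DA1 (513412) and FA2 (509035) and lowest in DA2 (423997) and DT2 (350139). The part of this sum in the shared movement of the members was not tested. FT1 and FT2, in which all 10 members were below FT3, are the flox tumours with the high squamous markers given above. Of the members, Slc2a1 and Pfkl had the lowest deviations in FA1 (−0.39 and −0.29) and the highest in DA1 (0.78 and 0.56). Hk1, Hk2, Pgk1 and Pkm were instead above their group mean in FA1 (0.16, 0.05, 0.32 and 0.12). Within flox adjacent tissue Slc2a1 and Pfkl were highest in FA2 (0.43 and 0.30), whereas the sum of colonocyte markers was highest in FA3. The part of cell make-up in these deviations was not tested. The genes outside the list most like the mean standardised profile of the members over the 12 libraries were Sowahb (Pearson r = 0.97), Prr13 (0.95), Tdrd7 (0.94), Chmp2a (0.94) and Eif2s2 (0.94).

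**Figure D4:**
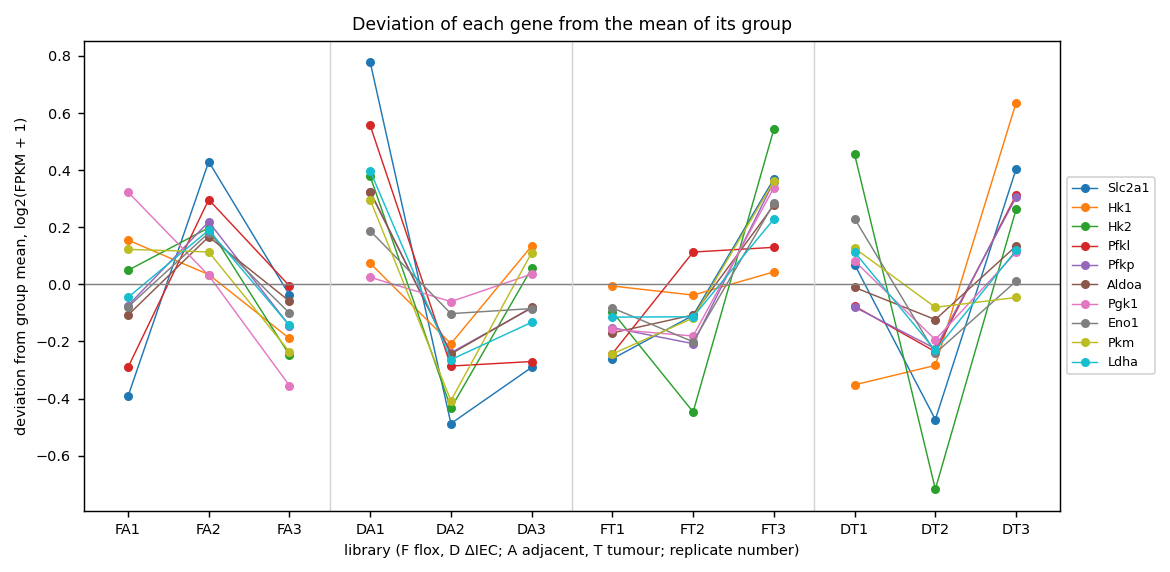
Deviation of each gene from the mean of its group, on the log2(FPKM + 1) scale, in the 12 libraries (lines join libraries of a group and carry no order). All 10 genes are above their group mean in FT3 and DA1 and below it in DA2.

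Around the members, other glycolysis genes were counted from a list of 23, of which 20 were tested. In flox tumours 6 of the 20 were called lower and 1 higher, and in ΔIEC tumours 4 were called lower and 0 higher, with medians of −0.15 and 0.00. Over all tested genes 19.7% were called lower and 16.6% higher in flox tumours and 15.5% and 13.9% in ΔIEC tumours, so the ΔIEC count is near that background, and the list counts below stand beside the same shares. Pfkfb4, which makes the phosphofructokinase activator fructose 2,6-bisphosphate, fell from 9.996 to 14.2 FPKM in adjacent tissue to 3.71 to 6.81 in tumours (−1.37 and −0.96, adjusted p = 0.000777 and 0.00581). Pfkfb3, a relative of Pfkfb4, went the other way, from 2.48 to 8.10 FPKM to 9.63 to 23.3, and was called in flox mice (2.00, adjusted p = 0.00117) but missed the threshold in ΔIEC mice (0.90, adjusted p = 0.0515). That ΔIEC difference passed under 7 alternatives, with adjusted p-values of 0.0176 to 0.0493, among them every other scaling run, a filter at an FPKM of 5, protein-coding transcripts only, and leaving out FT2 or FT3. The glucose 6-phosphate isomerase Gpi1 was called lower in flox mice (−0.88, adjusted p = 0.0253). That call was lost without FA2, FA3, FT1 or FT2 (adjusted p = 0.0983, 0.0724, 0.0779 and 0.0597). It was also lost after rescaling to the protein-coding total (0.0786), under quantile normalization (0.188) and with a replicate block by title number (0.0502). Gapdh, Tpi1 and Pgam1, named after their values were seen because they fill the remaining middle steps, were not called in either genotype, with Gapdh at 968 to 1288 FPKM in adjacent tissue and 969.6 to 1415 in tumours.

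Genes for lactate export and pyruvate entry into mitochondria changed in both directions, with 8 of 14 called lower and 2 higher in flox tumours and 6 lower and 2 higher in ΔIEC tumours (medians −0.60 and −0.32). Slc16a1 (MCT1), a transporter of lactate and butyrate, fell from 41.0 to 73.8 FPKM in adjacent tissue to 15.3 to 29.5 in tumours (−1.88 and −1.26, adjusted p = 0.000653 and 0.00569). Slc16a3 (MCT4), the lactate exporter of glycolytic cells, rose from 3.55 to 12.1 FPKM to 14.9 to 54.2 (1.79 and 2.17, adjusted p = 0.0186 and 0.0103). The flox call was lost without FA3 (1.498, adjusted p = 0.0679) or FT3 (1.43, adjusted p = 0.0672). Slc16a3 was highest in DT1 and FT3, as were Pfkfb3 and the Hk2 share. These tumours were also highest in the sum of 8 neutrophil markers, at 718 and 468 FPKM, with adjacent tissue at 7.48 to 198. Of these 8 markers, 7 were called higher in tumours of each genotype. The part of neutrophils in these results was not tested. Pdk2, which switches off pyruvate dehydrogenase, fell from 10.97 to 29.3 FPKM to 3.20 to 5.43 (−1.99 and −1.93), and Pdp1, the phosphatase that switches it on, rose from 5.75 to 10.5 to 15.4 to 26.2 (1.24 and 1.25). The pyruvate carrier subunit Mpc2 fell from 35.0 to 42.6 FPKM to 20.7 to 24.3 (−0.93 and −0.67). The calls of Slc16a1, Pdk2, Pdp1 and Mpc2 held in both genotypes when any library was left out.

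**Figure D5:**
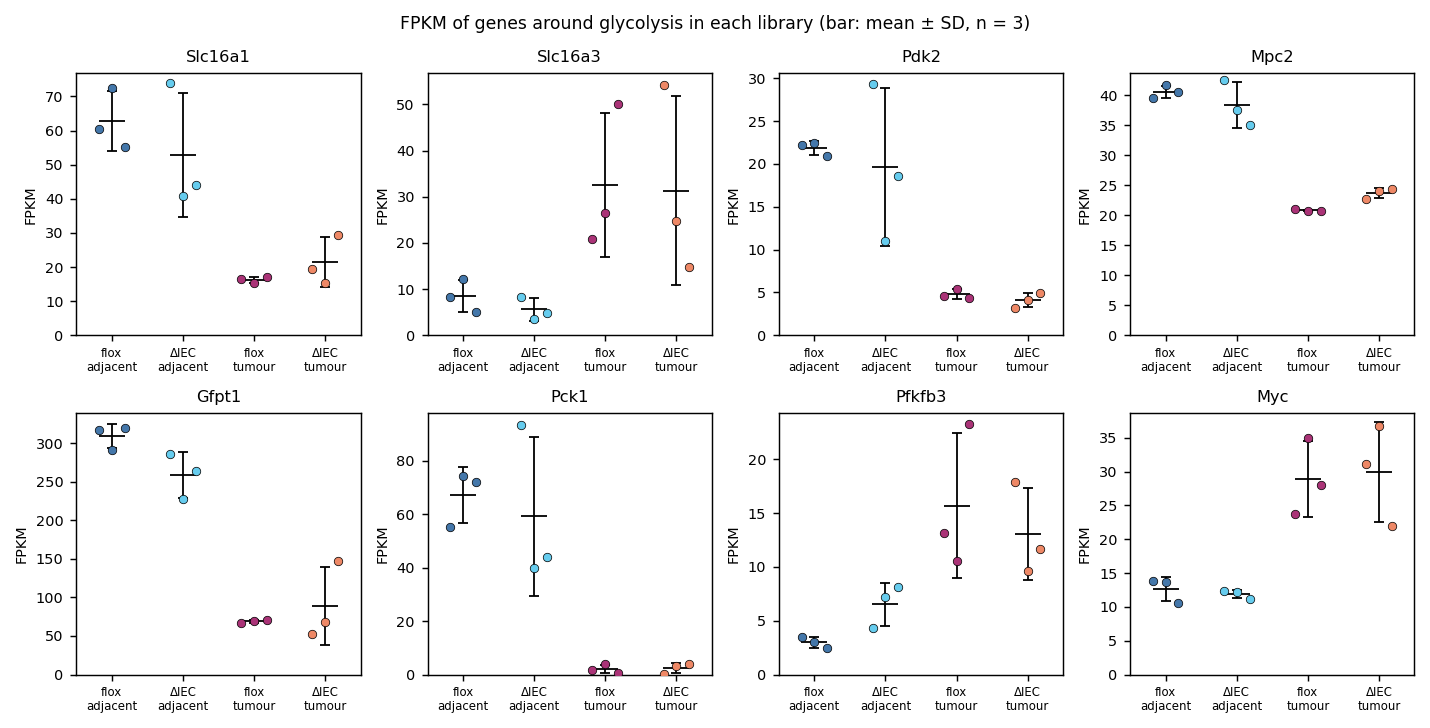
FPKM of 8 genes around glycolysis in the 12 libraries (vertical axes from 0, points are libraries, bars and whiskers are the mean ± SD of 3). Slc16a1, Pdk2, Mpc2, Gfpt1 and Pck1 are lower in all tumours and Slc16a3, Pfkfb3 and Myc higher in all tumours than in any adjacent library (Slc16a1 15.3 to 29.5 against 41.0 to 73.8 FPKM).

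Of 9 genes of gluconeogenesis and of restraint on glucose use, 7 were tested, and 3 were called lower in flox and 4 in ΔIEC tumours, with none higher (medians −0.69 and −0.77). Pck1, which makes phosphoenolpyruvate from oxaloacetate, fell from 40.1 to 93.4 FPKM in adjacent tissue to 0.19 to 4.003 in tumours (−4.61 and −4.27, adjusted p = 0.000516 and 0.00136). Txnip, which restrains glucose uptake, fell from 218 to 429 FPKM to 128 to 182 (−1.21 and −0.97). Its ΔIEC call was lost without DT1 (limma adjusted p = 0.0599), under quantile normalization (0.0539) and in a fit to the ΔIEC libraries alone (0.0585). Other calls in these counts were also lost under alternatives. The ΔIEC call of Pcx was lost without DA1 (limma adjusted p = 0.0942) or DT1 (0.112). After rescaling to the protein-coding total, the ΔIEC call of Pck2 (0.14) and the flox call of Fbp2 (0.0936) were lost. In the 24 genes of pathways that branch from glycolysis, 10 were called lower and 4 higher in flox tumours and 6 lower and 4 higher in ΔIEC tumours (medians −0.35 and −0.16). Gfpt1, the entry enzyme of hexosamine synthesis, fell by 2.15 and 1.66 (adjusted p = 0.000662 and 0.00325), Uap1 of the same pathway fell by 1.77 and 1.53, and Psat1 of serine synthesis rose by 1.29 and 1.21 (adjusted p = 0.00544 and 0.00951).

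Among 16 genes of HIF, Myc and related regulators, 7 were called lower and 2 higher in flox tumours and 5 lower and 2 higher in ΔIEC tumours. Myc, a transcription factor known to drive glycolytic genes, rose from 10.6 to 13.8 FPKM in adjacent tissue to 21.9 to 36.7 in tumours (1.12 and 1.23, adjusted p = 0.00192 and 0.00215), and Mycl rose from 4.13 to 9.40 to 10.04 to 19.7. Epas1, which encodes HIF-2α, fell by 1.29 and 1.08. Its ΔIEC call was lost without DA1, DA3, DT1 or DT2 (limma adjusted p = 0.056 to 0.0785). It was also lost after rescaling to the protein-coding total (0.0747) and in a fit to the ΔIEC libraries alone (0.0849). Hif1a, named after its values were seen, was at 22.4 to 81.4 FPKM in adjacent tissue and 55.0 to 115 in tumours and was not called (adjusted p = 0.219 and 0.393). Of 21 hypoxia-responsive genes outside glycolysis, 4 were called higher and 6 lower in flox tumours and 6 each way in ΔIEC tumours. The 4 higher calls are near the 16.6% of all genes called higher in flox tumours. Lox, which cross-links collagen, rose from 0.31 to 1.03 FPKM to 2.06 to 8.37, although its flox call was lost without FT1 and FT2 (1.40, adjusted p = 0.113), while Stc2 fell from 4.70 to 15.8 to 0.82 to 3.22. Lox is also a product of fibroblasts, whose summed markers were higher in tumours as given above (6 of 8 called higher in flox and 1 of 8 in ΔIEC mice), and the part of these cells in the result was not tested. Without FT1 and FT2, the flox calls of Gpi1, Slc16a3, Txnip and Epas1 were also lost, at adjusted p-values of 0.246, 0.0512, 0.107 and 0.051.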

How the data were processed

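The authors deposited 1 table of log2(FPKM + 1) per transcript, 123062 transcripts in 12 columns, each matched to a library by its code. The submitters' processing notes name FastQC, STAR 2.5, Cuffnorm and GRCm38; their settings and the scaling between libraries are not stated in the labels. FPKM were recovered from the log2 values and added up over the transcripts that matched GENCODE M21 (118004, 95.9%), giving 48448 genes. Reads shared with processed pseudogenes of these genes could be split in ways the table does not show, and Eno1b is listed at 0. Genes at an FPKM of 1 or more in at least 3 libraries (16970) were fitted with limma 3.58.1 in R 4.3.3 on log2(FPKM + 1), a pseudocount of 1, with 1 mean per group and eBayes (trend and robust). A gene was called at a Benjamini-Hochberg adjusted p below 0.05 within a contrast. Differences on this scale understate the change of low genes. The limma fit was tested on simulated data with independent normal noise for each gene. That simulation held no differences in library scaling or tissue make-up, so it cannot speak to them. Isozyme shares were compared by exact permutation.

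The members and gene lists were chosen with earlier results of these data known. Named genes are the 10 members, Trappc4, fellow isozymes, up to 5 called genes of each list with the largest mean difference over the tumour contrasts, the 3 members with the smallest p where no member was called, and the 5 protein-coding genes most like the members' mean profile; genes named outside this rule are marked, and 1 planned share and some genes that the rule takes are not reported here. The labels do not say that libraries are separate animals, so a p-value reflects variation among these libraries, which may be technical. Tissues that share a code (3 flox and 2 ΔIEC) did not all deviate together. With 3 libraries per group this check cannot show that they are unpaired. The main fit used no block, and the main permutation tests took libraries of a genotype as exchangeable. Alternatives were other scalings, filters, transcript sets, pseudocounts and fits, a replicate block, and leaving out each library; leaving out FA1 and DA1 together, and FT1 and FT2 together, was added after the data were seen. Sequences are from RefSeq (promoters) and GENCODE (exons), on GRCm38.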

Additional observations from a re-analysis of the deposited data

How the results depend on the processing

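In flox mice 4 to 6 members were called lower under each alternative run except without FT1 and FT2 together (0), and 0 were called higher except under quantile normalization (1, Eno1) and after rescaling to the protein-coding total (2, Eno1 and Pkm); the same 1 and 2 were called higher in ΔIEC mice. In ΔIEC mice the 4 lower calls became 2 with no filter, after rescaling, with a replicate block by title number and without FA1 and DA1 together, and 0 in a fit to these libraries alone; leaving out 1 library gave 1 to 5. The difference of Pgk1 in flox mice changed sign under quantile normalization (0.44), rescaling (0.39), without FA1 and DA1 (0.14) and without FT1 and FT2 (0.31), and ranged from −0.20 to 0.14 without 1 library. That of Eno1 in flox mice became 0.45 and 0.38 under quantile normalization and rescaling and 0.24 without FT1 and FT2, and ranged from −0.18 to 0.0595, and that of Pkm ranged from −0.0706 to 0.23. Hk2 in flox mice became 0.11 without FT1 and FT2, and in ΔIEC mice 0.0375 under quantile normalization, 0.14 after rescaling and 0.0388 without FA1 and DA1, and ranged from −0.38 to 0.21. Between genotypes in tumours Pfkp ranged from −0.0567 to 0.28 and Pfkl from −0.26 to 0.0101. Fbp2 in ΔIEC mice became 0.0305 after rescaling. The causes of these changes were not tested.

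Deviations of libraries sharing a code correlated at −0.19 to 0.17, which cannot settle whether these libraries are pairs. A replicate block by description code changed no call of a member. Paired by code with sign flips over 5 pairs, the smallest possible p is 0.0625, so no share could pass; the paired differences were 12.5 points for Hk2, 5.500 for Pfkp, −6.06 for Pfkl, −1.17 for Ldha, −2.42 for Slc2a1 and 15.6 for Eno1. The interaction has no fit to the groups compared alone. FPKM keep no depth, so counting error is unknown.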
